A study of Mus musculus with 6 samples.

Results

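Cytoplasmic ribosomal protein genes encode the proteins of the small (Rps) and large (Rpl) subunits of the ribosome, which translates all nuclear-encoded mRNA. Their signals were compared between newborn mouse testes that differed in Sin3a, the scaffold of a histone deacetylase corepressor complex. Members were all array probes annotated to Rpsa, to names formed of Rpl or Rps and a digit, or to the Rplp genes, without pseudogene names and without the Rps6k kinases. The 190 such probes named 86 genes, and each gene was read from its probe of highest mean signal. All 86 were among the 24570 genes tested. They comprised 30 small subunit genes, 43 large subunit genes, the 3 P-stalk genes and 10 paralogs or genes that share the naming pattern, such as Rps19bp1, which encodes a protein that binds the product of Rps19.

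The arrays measured total RNA of whole testes at postnatal day 0, from male mice of the strain FVB.129/Sv mixed, with 2 animals per group. Testes of VSKO mice carried a deleted and a floxed Sin3a allele and the Vasa (Ddx4) cre transgene, which acts in germ cells. HEMI testes were hemizygous for Sin3a in germ cells, and WT testes carried the cre transgene with intact Sin3a alleles. All groups thus shared the cre driver, and the labels do not name the exons removed. Each sample was hybridised to its own one-colour array of 60-base probes, and all 6 arrays lay on 1 slide. VSKO and HEMI arrays were in row 1 of the slide and WT arrays in row 2, so row cannot be told apart from a difference to WT.

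Ribosomal protein genes are transcribed at high levels in nearly every cell type, and their products are made in matched amounts. Most of their mRNAs start with a C followed by a run of pyrimidines, the 5′ terminal oligopyrimidine (TOP) motif, through which mTOR signalling controls their translation. A few members have paralogs with restricted expression: in mice, Rpl10l stands in for X-linked Rpl10 during male meiosis, Rpl39l is expressed in male germ cells, and Rpl3l in striated muscle.

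The start regions of 4 members are shown because they differ in this run near the annotated start. Each spans 60 bases from 30 before the annotated start, taken from RefSeq on GRCm38.p6, and capitals mark a C followed by at least 6 C or T bases. Where several C bases of a run qualify, the capitals begin at the one nearest the annotated start.
Rps6, minus strand of chr4:86857338-86857397: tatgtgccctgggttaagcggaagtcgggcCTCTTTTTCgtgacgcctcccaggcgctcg
Rpl22l1, plus strand of chr3:28805478-28805537: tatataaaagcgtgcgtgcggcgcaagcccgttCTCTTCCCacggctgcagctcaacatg
Rplp0, plus strand of chr5:115559437-115559496: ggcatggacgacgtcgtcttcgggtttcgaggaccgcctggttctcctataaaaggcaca
Rpl10l, minus strand of chr12:66284372-66284431: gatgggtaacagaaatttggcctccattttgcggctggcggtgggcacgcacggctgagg
The capitals began at the annotated start itself in Rps6, where they cover 9 bases, and at base 4 of the transcript in Rpl22l1. In Rps6 the C just before the capitals also belongs to the run. No run was found in this window of Rplp0 or Rpl10l. That does not show that their mRNAs lack a TOP start. Annotated starts, here and in the shares below, were not checked against measured transcript starts. In Rplp0 the bases TATAAA lie after the annotated start.

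RefSeq start regions, each of 250 bases before to 50 after the start, matched 64 members. A run starting within 20 bases of the annotated start was present in 33 of the 64 (51.6%), against 20.8% of all 27025 genes in the table. On either strand of the whole region, CCGGAAG, a core of ETS family motifs, occurred in 39.1% of members and 9.12% of all genes. GGGCGG, a core of Sp1-type motifs, occurred in 60.9% and 35.9%, and AAGATGGC, a core of the YY1 motif, in 7.81% and 2.88%. TATAAA was present in 9.38% of members and 14.2% of all genes. CCGGAAG can overlap AAGATGGC by its last 3 letters, and its reverse complement can overlap the pyrimidine run. A match is a description of sequence alone. Members with and without the run had like medians in all comparisons: in HEMI minus WT they were -0.19 over the 33 genes with it and -0.18 over the 31 without it.

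Values below are log2 signals relative to the array's 75th percentile, so that 0 is the signal of that percentile, and differences are log2 differences between group means of 2 arrays. A call needed an adjusted p below 0.05 in limma with Benjamini-Hochberg adjustment over all genes tested. Every member was well above background on all 6 arrays, no spot was saturated, and 81 of the 86 lay in the brightest 10% of genes by mean signal. Sin3a was measured at 0.61 and 0.38 in VSKO, 0.89 and 0.89 in HEMI, and 1.09 and 1.11 in WT testes, the order of the labelled genotypes, though whether its probe lies in the deleted stretch is not known here. Its differences to WT were -0.60 in VSKO and -0.21 in HEMI, with limma adjusted p values of 0.134 and 0.568. Of the defining genes tested, those of Sertoli cells (7 of 7), fetal Leydig cells (5 of 5, with 6 listed) and germ cells (12 of 13) were above background on all arrays. Being tested already required this on both arrays of at least 1 group. Skeletal muscle genes varied within groups, with list medians of -0.26 and 1.59 on the VSKO, 1.47 and 3.29 on the HEMI and 3.30 and 0.38 on the WT arrays; their part in the results was not tested.

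No ribosomal protein gene passed the test between VSKO and WT testes: 0 of 86 were called by limma, where 0.977% of all genes tested were (240 genes). At an unadjusted p below 0.05 the count was also 0, against 14.7% of all genes. The median member lay 0.088 lower in VSKO, although 0.055 higher when the arrays were not scaled, and the median gene lay 0.009 lower. In whole tissue, a smaller number of cells of a type and less RNA per cell cannot be told apart, and these levels sum over all testis cells. Of the 86 members, 72 had a difference below 0, which 51.2% of all genes had. Both VSKO arrays lay below both WT arrays for 7 members (background 23.4%) and above them for 0 (background 22.3%). The 7 were Rpl6, Rpl7a, Rpl10, Rps2, Rps20, Rpl22l1 and Rps27l. These counts moved with the scaling, to 42 lower (48.8%, background 19.4%) and 4 higher with spike-in scaling, and to 2 lower and 21 higher (24.4%, background 26.9%) with no scaling.

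With 75th percentile scaling, the 2 VSKO animals lay further apart than the group means did. Replicate 1 lay below replicate 2 in 85 of 86 members, by 0.27 at the median, whereas 51.9% of all genes lay so, by 0.015 at the median. The exception was Rps4y2, which is the mouse gene also known as Rps4l. In HEMI, replicate 1 was below replicate 2 in 17 members, and in WT in 28. The VSKO count of 85 was the same with median or 95th percentile scaling and 82 with cyclic loess. It was 60 with quantile scaling, 31 with no scaling and 12 with spike-in scaling, so the order of the 2 animals depended on the scaling. The summed signal of the erythroid genes, in multiples of the 75th percentile, rose on VSKO replicate 2. It was 223 and 568 on the VSKO, 191 and 211 on the HEMI and 220 and 221 on the WT arrays. A sum weighs the brightest genes most. The list median did not move so, with 5.09 and 5.01 on the VSKO, 4.98 and 5.25 on the HEMI and 5.16 and 5.13 on the WT arrays. Of 8 erythroid genes listed, 5 were measured. Of the 5 measured, 4 were highest on VSKO replicate 2, the globin genes Hba-a1 and Hbb-bt among them, and Hemgn was not. Their part in the difference between the VSKO arrays was not tested. VSKO replicate 2 gave the highest of the 6 values in 57 members, and VSKO replicate 1 the lowest in 40. With VSKO replicate 1 left out, the median over members turned to 0.060 above WT. With VSKO replicate 2 left out it was 0.22 below WT.

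**Figure D1:**
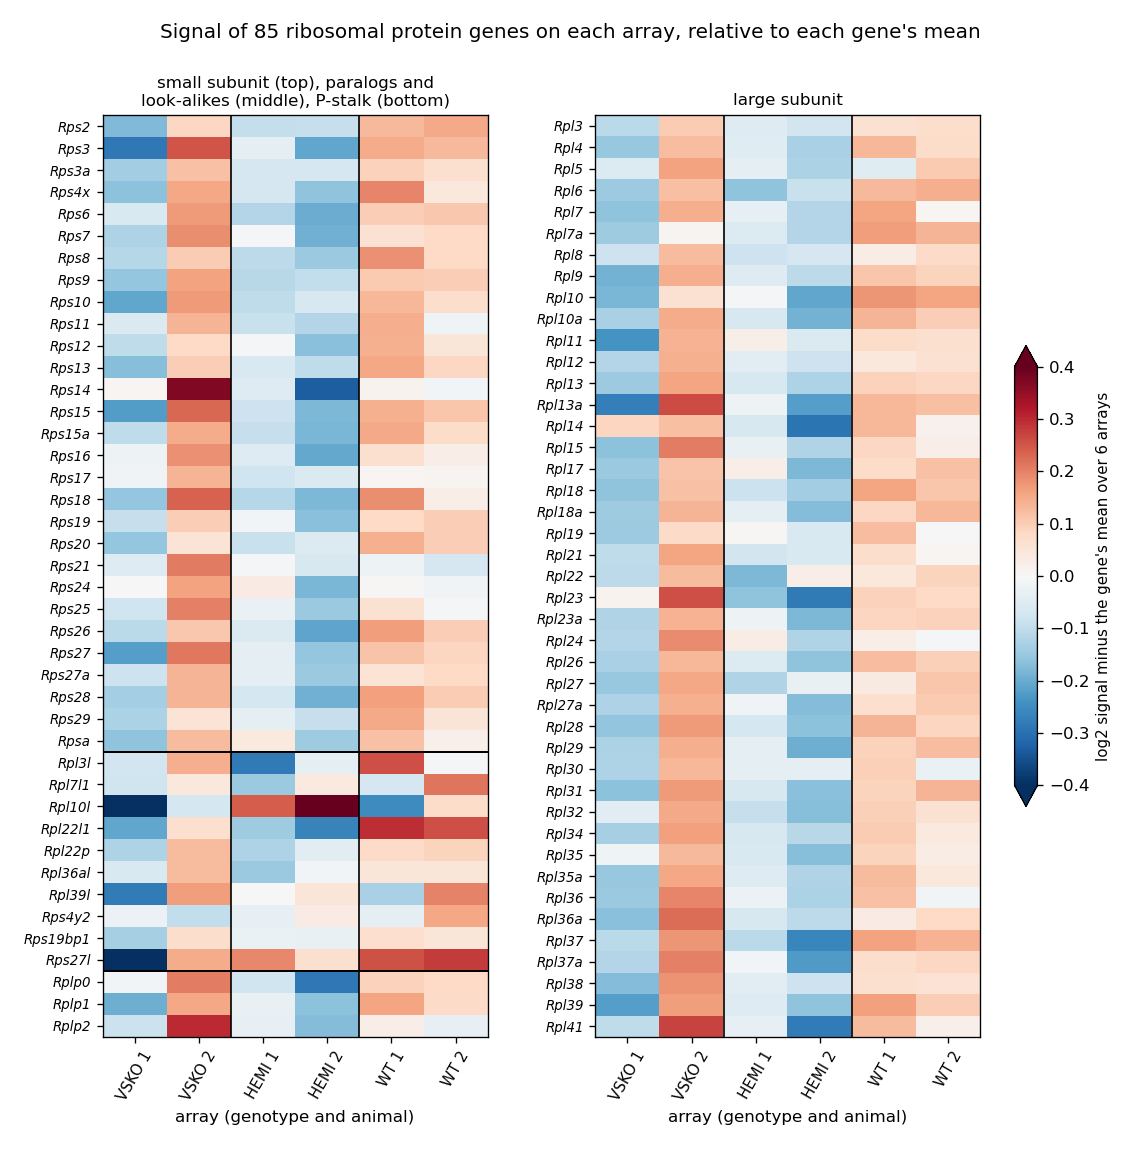
Signal of 85 of the 86 members on each array, as log2 signal minus that gene's mean over the 6 arrays (colour, red above and blue below the mean; the scale ends at 0.4 in each direction). Arrays run from VSKO over HEMI to WT. The second VSKO column is red in nearly every row and the first is mostly blue, the HEMI columns are mostly blue and the WT columns mostly red.

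Among the genes of the small subunit, Rps6, the substrate of S6 kinases, had 7.41 and 7.64 in VSKO, 7.35 and 7.27 in HEMI, and 7.57 and 7.58 in WT testes. The HEMI arrays were lowest, and the VSKO arrays lay on either side of both WT arrays. Rps19, mutated in human Diamond-Blackfan anaemia, had 6.42 and 6.61 in VSKO, 6.50 and 6.35 in HEMI, and 6.59 and 6.61 in WT testes, and the lower VSKO value lay within the HEMI range. Rps14 stood highest in VSKO, with 8.79 and 9.15, against 8.73 and 8.45 in HEMI and 8.80 and 8.77 in WT testes. Its VSKO minus WT difference of 0.19 was the most positive of any member (limma adjusted p = 0.679), and it came from replicate 2, since replicate 1 was level with WT. Other positive differences were 0.12 for Rps21 and 0.11 for Rplp2. Rps21 had 6.64 and 6.90 in VSKO, 6.69 and 6.63 in HEMI and 6.67 and 6.63 in WT testes. It was 1 of the 2 members whose HEMI mean was not below WT.

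Rpsa, which encodes a small subunit protein that also serves as a laminin receptor precursor, had 7.93 and 8.22 in VSKO, 8.13 and 7.95 in HEMI, and 8.21 and 8.11 in WT testes, and no pair of groups was separated. Rps4x differed from WT by -0.12 in VSKO and -0.23 in HEMI, and Rps27 by -0.10 and -0.20. Over the 30 small subunit genes the median difference to WT was -0.089 in VSKO and -0.19 in HEMI, and VSKO minus HEMI was 0.12. All 30 lay higher in VSKO than in HEMI, and 29 lay lower in HEMI than in WT.

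In the large subunit, Rpl5 and Rpl11, which carry 5S rRNA into the subunit and bind Mdm2, had no common pattern. Rpl5 had 6.37 and 6.58 in VSKO, 6.38 and 6.29 in HEMI, and 6.37 and 6.52 in WT testes. Rpl11 had 7.82 and 8.19 in VSKO, 8.08 and 8.0 in HEMI, and 8.13 and 8.12 in WT testes. Rpl10, an X-linked gene whose product joins late in 60S assembly, had 7.85 and 8.09 in VSKO, 8.03 and 7.82 in HEMI, and 8.21 and 8.19 in WT testes. All 4 VSKO and HEMI values were below both WT values, by 0.23 in VSKO and 0.27 in HEMI on average (limma adjusted p = 0.540 and 0.524). Rpl7a was as regular on the probe used, with 7.19 and 7.35 in VSKO, 7.28 and 7.22 in HEMI, and 7.50 and 7.47 in WT testes. It was not called either (limma adjusted p = 0.482 and 0.502). A second bright Rpl7a probe, starting at base 762, had 7.04 and 7.27 in VSKO and 7.13 and 7.09 in WT testes. Its VSKO minus WT difference was 0.041, so that sign depended on the probe. Dimmer probes at bases 791 and 130 gave -0.11 and -0.083. HEMI minus WT stayed below 0 on all of them, from -0.24 to -0.18.

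Rpl23, another Mdm2-binding protein gene, had 8.18 and 8.43 in VSKO, 8.01 and 7.89 in HEMI, and 8.26 and 8.25 in WT testes. Only the HEMI values stood apart from the others, by -0.31 from WT. This is the brightest Rpl23 probe. Probes of this gene starting at bases 363 and 925 gave smaller HEMI minus WT differences, of -0.16 and -0.13. Rpl37 had the largest HEMI minus WT difference of the large subunit, -0.33, with 8.16 and 8.45 in VSKO, 8.16 and 8.01 in HEMI, and 8.43 and 8.41 in WT testes. Rpl24 was nearest to 0 in that comparison within the large subunit, at -0.055. Rpl3, Rpl7, Rpl22, Rpl26, Rpl36a and Rpl39 differed from WT by -0.16 to -0.028 in VSKO and by -0.24 to -0.13 in HEMI, and none of them passed the test. The large subunit medians were -0.080 for VSKO minus WT, -0.18 for HEMI minus WT and 0.098 for VSKO minus HEMI.

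HEMI testes had lower signals than WT for almost the whole family, although no single member was called (0 of 86 by limma, background 0.118%, or 29 genes). The median member was 0.18 lower in HEMI, a ratio of 0.884, and the median gene 0.024 lower. The sign was the same under every scaling that did not use the members themselves, with medians from -0.20 to -0.023. With quantile scaling 54 members lay below 0 (62.8%, all genes 49.7%), and with no scaling 60 (69.8%, all genes 33.4%). Of the 86 members, 84 lay below 0, as did 53.5% of all genes, and the exceptions were Rpl10l and Rps21. The shift was not particular to the family. Of 359 genes outside it with a signal at or above the members' lower quartile, 96.1% lay below 0, with a median of -0.19. Both HEMI arrays lay below both WT arrays for 75 members, or 87.2%, where the background was 28.4%. They lay above both for Rpl10l alone, with a background of 20.9%. The 10 members whose arrays overlapped included Rpl5, Rpsa, Rplp2, Rpl19, Rps24 and Rps21. The share of 87.2% depended on the scaling. It was 90.7% with spike-in scaling (background 31.5%) and 37.2% with cyclic loess (background 26%). With quantile scaling it was 27.9% (background 24.9%) and with no scaling 16.3% (background 12.9%), both near the background. At an unadjusted p below 0.05, 1 member passed, Rpl22l1, against 12.4% of all genes. Since WT is the common control of this comparison and of VSKO minus WT, the same WT arrays enter both.

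Between VSKO and HEMI, whose arrays share a slide row, 0 of 86 members were called by limma (background 0.142%, or 35 genes). At an unadjusted p below 0.05 the count was 2, Rpl10l and Rpl23, and 7.69% of all genes passed that bound. The Rpl23 difference was 0.36 on the probe used, and 0.12 and 0.029 on its other probes. The median member was 0.10 higher in VSKO and the median gene 0.024 higher, and over the scalings that did not use the members themselves their median ran from 0.0065 to 0.13. Members below 0 numbered 7, as did 44.6% of all genes, and both VSKO arrays lay above both HEMI arrays for 11 members (background 18.8%), among them Rps14, Rps6, Rplp0, Rpl23 and Rpl14. The reverse held for Rpl10l alone (background 14.1%). The count of 11 depended on the scaling: it was 64 (74.4%, background 16.1%) with spike-in scaling and 59 (68.6%, background 15.7%) with no scaling. Without VSKO replicate 1 the median was 0.24, and without VSKO replicate 2 it was -0.038.

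The 3 P-stalk genes encode the proteins that recruit elongation factors to the large subunit. Rplp0, the scaffold of the stalk, had 8.37 and 8.59 in VSKO, 8.31 and 8.10 in HEMI, and 8.48 and 8.47 in WT testes. Rplp1 had 7.54 and 7.89 in VSKO, 7.71 and 7.57 in HEMI, and 7.89 and 7.81 in WT testes. Rplp2 had 8.32 and 8.70 in VSKO, 8.37 and 8.23 in HEMI, and 8.43 and 8.37 in WT testes. In all 3 the HEMI mean was below the WT mean, by 0.10 to 0.27, and the VSKO replicates lay on opposite sides of at least 1 WT array.

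Rplp0 also shows how far the choice of probe matters, because 2 of its probes start 7 bases apart in the transcript and share 53 positions by placement. Of these positions 5 differ, in capitals below, and both sequences are the array's own designs on mm9. The 2 probes thus cannot both match that stretch of the genome exactly. Which RNA each detects was not checked, so the signal of either cannot be assigned to Rplp0 with certainty.
Rplp0 probe used, plus strand of chr5:116013404-116013463: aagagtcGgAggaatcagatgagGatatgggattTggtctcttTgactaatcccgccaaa
Rplp0 second probe, plus strand of chr5:116013397-116013456: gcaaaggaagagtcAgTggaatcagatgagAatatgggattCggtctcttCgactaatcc
The VSKO minus HEMI difference was 0.28 on the first probe and 0.10 on the second. The VSKO minus WT difference was 0.010 and -0.10, so its sign depended on the probe. The HEMI minus WT difference kept its sign, at -0.27 and -0.21. Another Rplp0 probe, which starts at base 1096 of the transcript, gave -0.14, -0.20 and 0.066 for VSKO minus WT, HEMI minus WT and VSKO minus HEMI.

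Several kept probes were available for 57 members, 159 probes in all. The range of the differences over the probes of a gene had a median of 0.093 for VSKO minus WT, 0.091 for HEMI minus WT and 0.095 for VSKO minus HEMI. That is about as large as the family's median difference to WT in VSKO. Probes of a gene disagreed in sign for 15, 5 and 9 of the 57 genes in these comparisons. The 102 probes not used as a gene's representative had medians of -0.098, -0.18 and 0.095, close to those of the probes used. The widest ranges came from dim probes, such as one of Rpl6 that starts at base 1154 of the transcript. It had -4.44 and -5.10 in VSKO, -4.80 and -4.78 in HEMI, and -4.26 and -4.10 in WT testes. For 7 members, among them Rpl3, Rps27 and Rps4x, the array design places the probe on another chromosome than the gene, so the signal cannot be assigned to that gene with certainty.

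The members with the largest differences were paralogs, and their probes are identified here. Capitals mark the start of a run of 43 bases that the Rpl22 and Rpl22p probes share, the only pair of member probes with a common run of at least 20 bases. Unless stated, the first 30 of 60 bases are given, with the place of the whole probe on mm9.
Rps27l, plus strand of chr9:66795486-66797176: aaagccaggctcacagaaggctgttcattt
Rpl22l1, plus strand of chr3:28706237-28706296: cagagtctgaggactaattggcctctgctt
Rpl10l second probe, whole and not the brighter one used for the gene, minus strand of chr12:67384868-67384927: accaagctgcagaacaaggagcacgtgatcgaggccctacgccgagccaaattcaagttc
Rpl22, plus strand of chr4:151706515-151706574: ggaggaagacgagGATTAGGACACATTGGT
Rpl22p, plus strand of chr2:4621659-4621718: gatgagaagaggacgaaGATTAGGACACAT

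Rpl10l, the autosomal retrogene of Rpl10, was highest in HEMI. It had 2.01 and 2.38 in VSKO, 2.69 and 2.90 in HEMI, and 2.20 and 2.52 in WT testes. Both HEMI values exceeded the other 4, and VSKO and WT overlapped. The differences were -0.60 ± 0.20 for VSKO minus HEMI and 0.44 ± 0.20 for HEMI minus WT (standard errors), with limma adjusted p values of 0.512 and 0.457. The second probe had -0.61 and -0.31 in VSKO, -0.02 and 0.11 in HEMI, and -0.44 and -0.08 in WT testes, again with both HEMI values on top. Its differences had the opposite sign to the family's medians in both comparisons, as those of Rps21 did in HEMI minus WT and of 6 other members in VSKO minus HEMI. Its sign was the same under all 20 alternative treatments of the data, with a range of -0.79 to -0.42 for VSKO minus HEMI and 0.27 to 0.65 for HEMI minus WT.

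Rpl22l1, a paralog of Rpl22, was low in both groups with a deleted allele. It had 5.84 and 6.11 in VSKO, 5.91 and 5.78 in HEMI, and 6.34 and 6.30 in WT testes. All 4 values were below both WT values. The differences were -0.35 ± 0.14 for VSKO minus WT and -0.48 ± 0.14 for HEMI minus WT (standard errors), with limma adjusted p values of 0.357 and 0.303. Over the 20 alternatives they ranged from -0.48 to -0.20 and from -0.54 to -0.27. Its relative Rpl22 had 6.86 and 7.09 in VSKO, 6.78 and 6.99 in HEMI, and 7.0 and 7.05 in WT testes, without separation of VSKO from WT.

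Rps27l, a paralog of Rps27 and a known p53 target, had the most negative VSKO minus WT difference of any member, -0.66, which rested on 1 array. It had 4.22 and 5.31 in VSKO, 5.36 and 5.23 in HEMI, and 5.42 and 5.44 in WT testes. Without VSKO replicate 1 the difference was -0.12, and without VSKO replicate 2 it was -1.21 (limma adjusted p = 0.104). Among the probes printed here, it alone covers more than 60 bases of the genome, spanning 1691, as a probe across an intron does. The 8 genes of a p53 response list had a VSKO minus WT median of 0.034, and none was called.

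Rpl39l had 2.35 and 2.80 in VSKO, 2.63 and 2.68 in HEMI, and 2.51 and 2.83 in WT testes, and the groups overlapped throughout. The muscle paralog Rpl3l had -2.49 and -2.26 in VSKO, -2.69 and -2.45 in HEMI, and -2.15 and -2.42 in WT testes. It was highest on WT replicate 1 and VSKO replicate 2, and the skeletal muscle list on WT replicate 1 and HEMI replicate 2. Rps4y2 had 4.0 and 3.93 in VSKO, 3.99 and 4.06 in HEMI, and 3.99 and 4.18 in WT testes. Rpl36al, Rpl7l1 and Rps19bp1 had differences between -0.13 and 0.11 in all comparisons. The 10 paralogs and look-alikes had a median of -0.092 for VSKO minus WT, -0.13 for HEMI minus WT and 0.017 for VSKO minus HEMI. The 76 other members all stayed within 0.4 of 0 in all 3 comparisons.

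**Figure D2:**
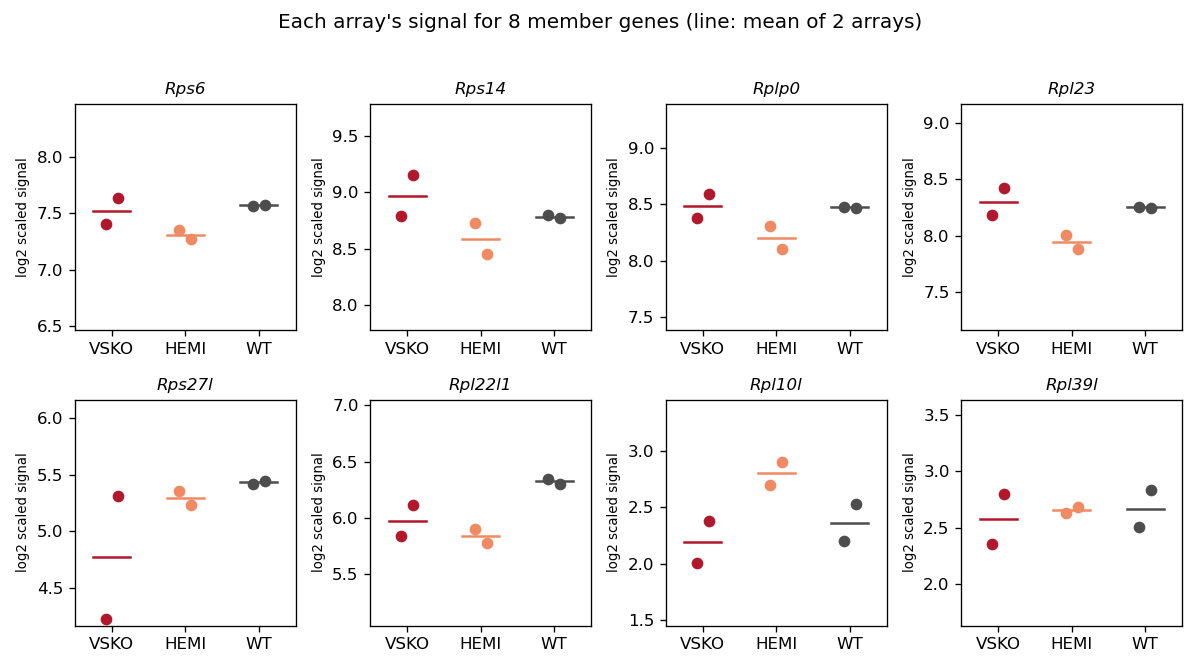
Log2 scaled signal of 8 members on each array (points; bars are means of 2 arrays) in VSKO, HEMI and WT testes; each panel spans 2 log2 units around its gene's own mean. Rpl22l1 is below WT on all 4 VSKO and HEMI arrays, Rpl10l is highest in HEMI, and the low Rps27l mean in VSKO comes from 1 array at 4.22.

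Because the members are among the brightest probes, the family's shift was recomputed under other scalings of the arrays. Its size, and for VSKO its sign, depended on that choice. For VSKO minus WT the median over members was -0.12 with scaling to the array median, -0.054 with the 95th percentile, -0.032 with cyclic loess, -0.015 with quantile scaling and 0.055 with no scaling. For HEMI minus WT the same settings gave -0.14, -0.16, -0.055, -0.023 and -0.038. For VSKO minus HEMI they gave 0.032, 0.11, 0.040, 0.0065 and 0.10. Scaling to the added E1A spike-in controls gave -0.084, -0.20 and 0.13 in the order of these comparisons. With no scaling the median of all genes itself was 0.13 for VSKO minus WT and 0.12 for HEMI minus WT. Relative to that the members lay 0.079 and 0.15 lower, the same as with the 75th percentile. Scalings that shift each array by a constant leave this relative value unchanged by construction. Both HEMI arrays lay below both WT arrays for 24 members with quantile scaling (27.9%, background 24.9%) and 14 with no scaling (16.3%, background 12.9%), in place of 75. The count was 32 with cyclic loess (37.2%, background 26%) and 78 with spike-in scaling (90.7%, background 31.5%).

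**Figure D3:**
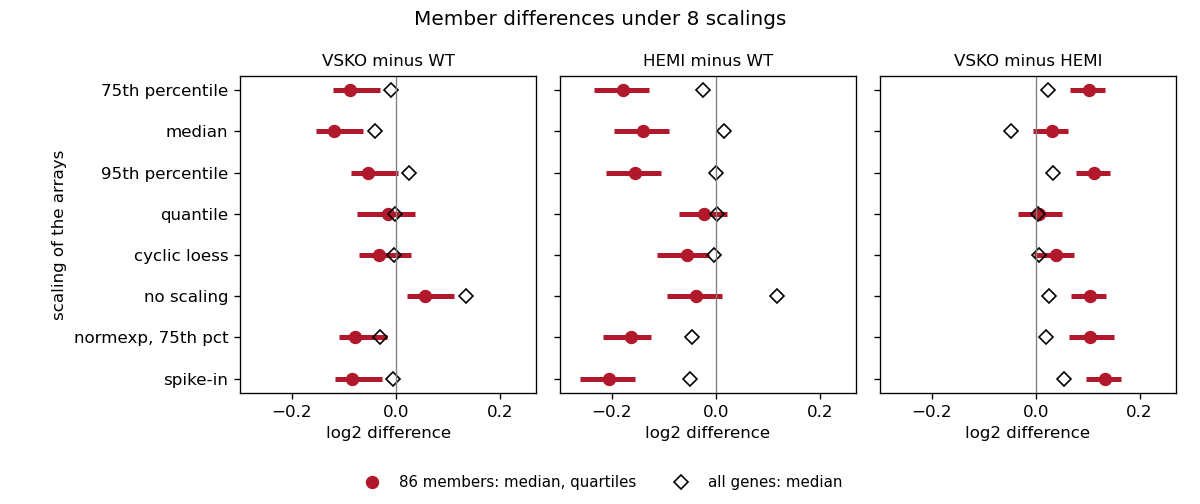
Median (red dot) and quartiles (red bar) of the log2 differences of the 86 members, and the median of all genes tested (open diamond), under 8 scalings of the arrays for VSKO minus WT, HEMI minus WT and VSKO minus HEMI. The HEMI minus WT median runs from -0.20 with spike-in scaling to -0.023 with quantile scaling, and VSKO minus WT crosses 0 with no scaling.

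The shift was shared with other bright genes. The 359 genes outside the family with a mean signal at or above the members' lower quartile of 6.81 had medians of -0.076 for VSKO minus WT, -0.19 for HEMI minus WT and 0.11 for VSKO minus HEMI. The 64 members at or above that signal had -0.086, -0.19 and 0.10. Of the 359 genes, 96.1% lay below 0 in HEMI minus WT and 79.9% in VSKO minus WT. The same behaviour within VSKO varied with the scaling too: replicate 1 was below replicate 2 in 85 members with the 75th percentile, in 60 with quantile scaling, in 31 with no scaling and in 12 with spike-in scaling.

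**Figure D4:**
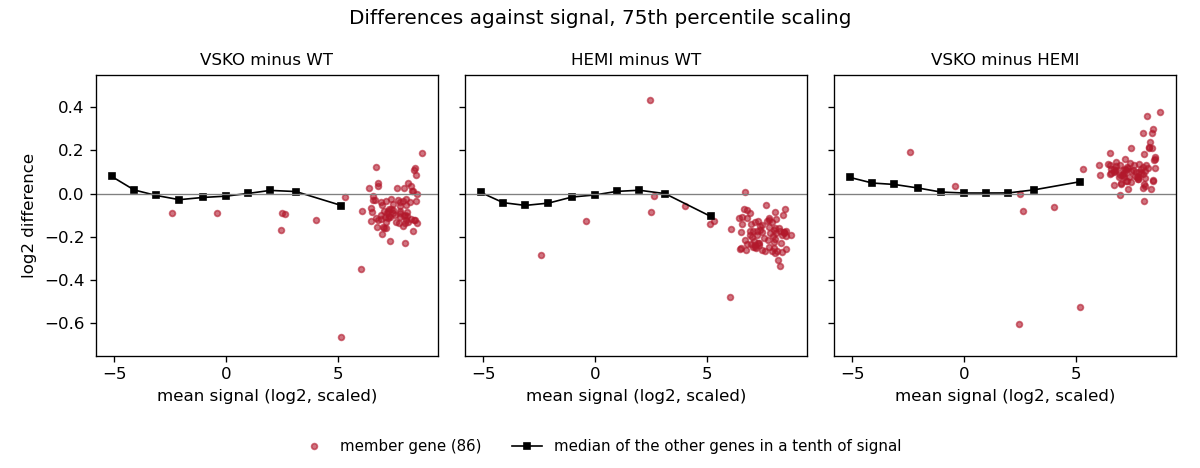
Log2 difference of each member (red) against its mean log2 scaled signal, with the median difference of all other genes in each 10% of genes by signal (black squares), for the 3 comparisons. In the brightest 10% the black line is at -0.055, -0.10 and 0.055, on the side where most members lie. In the dimmest 10% it is at 0.080, 0.006 and 0.075.

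Part of the members' spread between arrays was common to them. The SD within groups, pooled over the 3 groups, had a median of 0.13 over members and 0.17 over all genes, and 75 members were below the median gene. After each array was centred on the median of the members themselves, the median SD was 0.058. Whether bright genes outside the family also spread less on that scale was not tested. On that scale Rpl10l was the only member at an unadjusted p below 0.05 in any comparison, at 0.65 for HEMI minus WT and -0.73 for VSKO minus HEMI (limma adjusted p = 0.295 and 0.361). Of all genes, 13.9% and 7.24% passed that bound on this scale in these comparisons, and 12.6% in VSKO minus WT, where no member did.

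Other genes of the translation machinery were read from lists chosen with the family. Fau, which encodes a ribosomal protein fused to a ubiquitin-like sequence, and Rack1, a component of the small subunit, fall outside the name rule. Fau differed by -0.048 in VSKO minus WT, -0.096 in HEMI minus WT and 0.047 in VSKO minus HEMI, and Rack1 by -0.10, -0.15 and 0.047. The 18 translation factors and related genes with TOP mRNAs had medians of -0.015, -0.13 and 0.10 in these comparisons, and 0 were called. The most negative were Eef2 in VSKO minus WT, at -0.40, and Eif4b in HEMI minus WT, at -0.48, and the most positive was Hnrnpa1 in VSKO minus WT, at 0.28.

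Mitochondrial ribosomal proteins, encoded by other genes and built into another ribosome, had medians close to 0 over 78 genes, at -0.030, -0.019 and 0.013. Mrpl49 was lowest among them in VSKO minus WT, at -0.67 (limma adjusted p = 0.174). The 28 genes of ribosome assembly and rRNA transcription had medians of 0.023, 0.087 and -0.065. Among them Rrs1, an assembly factor, differed from WT by 0.43 in VSKO and 0.47 in HEMI, and Polr1e, a subunit of RNA polymerase I, by 0.47 in VSKO. The 16 genes of growth control, which include Myc, Mtor and Larp1, had medians of 0.009, -0.007 and -0.028. None of these genes was called in any comparison. These lists were dimmer, with list medians of at most 3.13 on WT replicate 2, against 6.28 for the TOP-class factors. Among genes outside the family, the 10% by signal with a mid signal of 3.13 had a HEMI minus WT median of 0.0003. The brightest 10%, with a mid signal of 5.17, had -0.10. Whether the lists differed from other genes of like signal was not tested.

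The 6 snoRNA host genes, whose spliced RNAs often carry TOP starts, were more scattered. Gas5 had 3.06 and 4.34 in VSKO, 3.16 and 3.20 in HEMI, and 4.12 and 4.16 in WT testes, so that HEMI lay 0.96 below WT and the VSKO animals were far apart. Snhg3 had 0.52 and 1.43 in VSKO, 2.24 and 1.83 in HEMI, and 0.84 and 1.03 in WT testes. Neither passed the test (limma adjusted p = 0.431 for Gas5 and 0.304 for Snhg3 in HEMI minus WT).

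**Figure D5:**
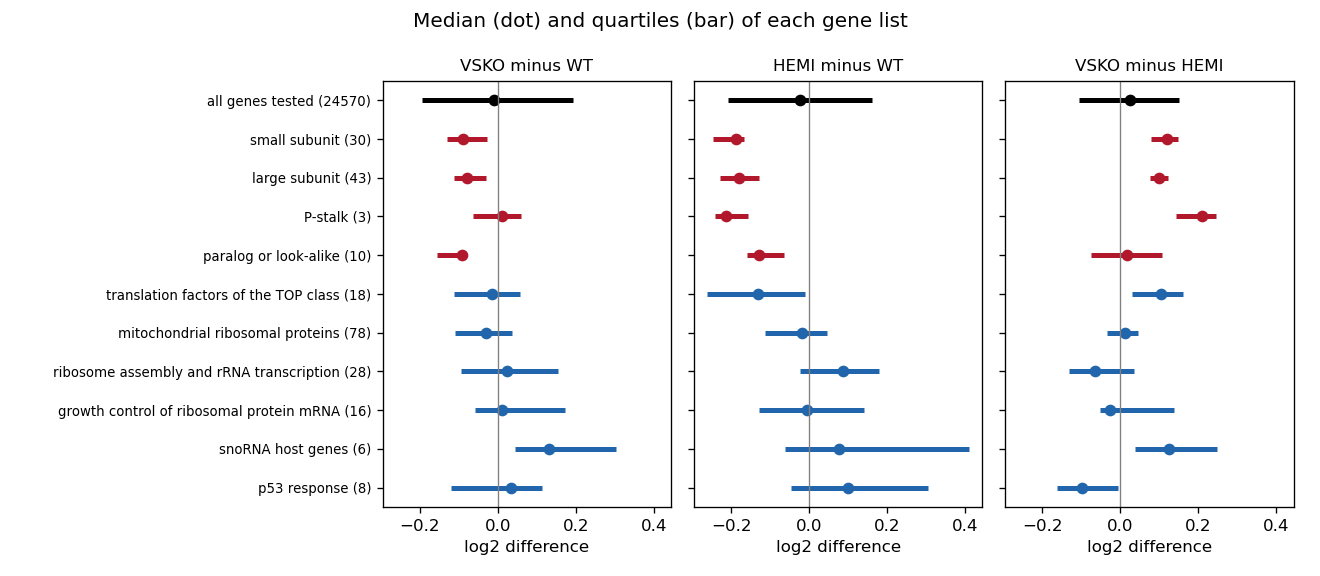
Median (dot) and quartiles (bar) of log2 differences for all genes (black), the member classes (red) and related lists (blue), with the number of genes in parentheses, for the 3 comparisons with 75th percentile scaling. In HEMI minus WT the ribosomal protein classes and the TOP-class factors lie below 0, at medians of -0.21 to -0.13, and the mitochondrial ribosomal proteins are near 0. The mitochondrial list is dimmer than the TOP-class list, and the part of signal in this contrast was not tested.

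Genes of other testis cell types differed between the groups beside these values. The germ cell gene Nanos2 was called lower in VSKO than in WT testes (limma adjusted p = 0.042), and was not well above background on every array. The Leydig cell enzyme gene Cyp17a1 was called there too, with 3.86 and 4.15 in VSKO, 4.29 and 4.44 in HEMI, and 5.29 and 5.51 in WT testes. Over all genes tested of these lists, 1 of 13 germ cell genes and 1 of 5 fetal Leydig cell genes were called, against 0.977% of all genes. Of the 13 and the 5, 12 and 4 lay below 0 in VSKO minus WT, against 51.2%. In HEMI minus WT none of either list was called, and 10 of the 13 and all 5 lay below 0, against 53.5% of all genes. The fetal Leydig median there was -1.0, with the groups separate for 4 of the 5, and the germ cell median -0.17. Their part in the levels of ribosomal protein genes was not tested.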

How the data were processed

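Total RNA of 6 whole testes was labelled with Cy3 and hybridised to one-colour Agilent arrays, per the labels' protocols. The deposited intensity values are the processed signals of Agilent Feature Extraction 10.7.3.1, per the file headers, which subtract background and are not scaled between arrays; the submitters' processing notes name version 8.5.1.1. The deposited series table holds the same intensity divided by each array's median, found by comparing both. Each array had 59305 non-control spots, of which 59.2% to 64.5% were well above background, and the number of arrays limits the precision. Flagged outlier spots were left out, spots of a probe were averaged, and probes had to pass the well-above-background flag on both arrays in 1 group or more. Log2 signals were scaled to the 75th percentile and fitted with limma 3.58.1 in R 4.3.3 (lmFit and eBayes, 1 mean per group, 6 arrays), on the brightest probe per gene. The code was tested on simulated data. Alternatives covered scaling, background, filters, probes, prior variance, replicate numbers and each array left out. Members and lists were chosen with earlier results of these data known. Genes named are the members with a call, the 4 most positive and 4 most negative per comparison, a list of well-known members and paralogs, and the extremes of related lists. Same-numbered arrays did not deviate together over all genes (correlations for VSKO with HEMI, VSKO with WT and HEMI with WT of -0.04, -0.03 and -0.01 over all genes, and of -0.17, 0.01 and 0.29 over members). Samples are separate animals. A few items that the rule names are not reported here.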

Additional observations from a re-analysis of the deposited data

How the results depend on the processing

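No member was called in any of the 3 comparisons under any of the 20 alternatives, 18 planned and 2 chosen after seeing the data (scaling to spike-in controls and to the members' own median); the lowest limma adjusted p of a member was 0.104. Over the same alternatives the calls among all genes ranged from 0 to 349. The median over members in HEMI minus WT was -0.18, and became -0.023 with quantile scaling, -0.055 with cyclic loess and -0.038 with no scaling. In VSKO minus WT it was -0.088, and became 0.055 with no scaling. Leaving out each array in turn gave -0.22 to 0.060 for VSKO minus WT, -0.22 to -0.14 for HEMI minus WT and -0.038 to 0.24 for VSKO minus HEMI, and the ends of the ranges of both VSKO comparisons came from leaving out the 2 VSKO arrays. In such fits the lone array is assumed to vary like the other groups. With the replicate number as a block, 0 members were called in each comparison and 19, 0 and 0 of all genes, in place of 240, 29 and 35; the medians stayed at -0.088, -0.18 and 0.10, and the numbers are only names here. Scaling to the members' own median sets these medians near 0 by construction and gives no value for them; the other settings left the 3 medians within the spread between arrays. Of 2040 differences of the 34 named genes, 221 moved by more than the spread between replicates and 215 changed sign, most of them under no scaling, quantile scaling, the members' median or without a VSKO array. The 2 animals per group limit the precision of every difference; signal over background does not, since each member was well above background on all arrays.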
